A study of Mus musculus with 12 samples.

Results

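The genes described here are 9 claudins (Cldn1, Cldn2, Cldn3, Cldn4, Cldn7, Cldn8, Cldn12, Cldn15 and Cldn23) and occludin (Ocln), taken by gene symbol. They are 10 of the 46517 gene IDs in the count tables. Of the 10, 9 had enough reads to be tested, and Cldn1 had none in any library. RNA was measured in intestinal epithelial cells released with EDTA from the colons of C57BL/6 mice aged 7 to 9 weeks. There were 4 groups of 3 biological replicates: wild type (WT) untreated, WT given dextran sulfate sodium (DSS) for 48 h, Nfkb2-/- (knockout, KO) untreated, and Nfkb2-/- given DSS for 48 h. DSS is a sulfated polysaccharide that damages the colonic epithelium, and Nfkb2 encodes p100/p52, a member of the NF-kB family of transcription factors. The labels name the knockout by its genotype alone, with no tissue-restricted driver, and the DSS dose is not given in the sources used here. The isolated cells were typically about 90% CD45.2-negative and EpCAM-positive by flow cytometry, per the labels, so other cells also contributed RNA. In such bulk samples, fewer cells of a type and less RNA per cell cannot be told apart.

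Claudins are membrane proteins that link neighbouring epithelial cells at the tight junction and set which ions and molecules can pass between cells. Some, such as claudin-2 and claudin-15, form paracellular channels for cations. Others, such as claudin-1, claudin-3, claudin-4 and claudin-8, tighten the seal. Occludin is a tight junction protein of a different family, the MARVEL proteins, and helps organise the junction. In the colon, claudin-2 is found mainly in crypts, whereas several sealing claudins are found towards the luminal surface.

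Total counts were 5595909 to 8117740 per library. Levels are given as CPM, the usual unit of counts scaled to library size, here with TMM factors. Nfkb2 itself was at 30.8 to 46.1 CPM in the 6 WT libraries and 11.7 to 19.6 CPM in the 6 KO libraries. KO libraries kept reads counted to the gene, but none overlapped WT (difference -1.32 in log2 CPM, exact two-sided permutation p = 0.00216, the smallest that the rearrangements can give). The summed level of 8 epithelial markers was 23665 to 31811 CPM in WT without DSS and 24196 to 25245 CPM with it. In KO it was 24243 to 25524 CPM without DSS and 20827 to 22374 CPM with it, the latter below all other libraries. None of the 8 was at 0 in any library. The summed level of 17 leukocyte markers was 18.4 to 35.9 CPM in WT without DSS and 64.5 to 70.6 CPM with it. In KO it was 83.6 to 95.3 CPM without DSS and 134 to 193 CPM with it. Of the 12 leukocyte markers tested, 5 rose under DSS in WT, 1 rose under DSS in KO, and 5 and 4 were higher in KO than in WT without and with DSS. Of the leukocyte markers, 0 to 7 were at 0 in a library. The part of epithelial and leukocyte markers in the claudin results was not tested. Endothelial markers summed to at most 4.42 CPM and fibroblast and smooth muscle markers to at most 3.66 CPM. One library, replicate 3 of untreated WT, stood apart from its group in several members, and results that rest on it are given with and without it. It is singled out by the members' own values, so a pass without it is not separate support. The library numbers in the sample descriptions run through all WT samples and then all KO samples, so library order and genotype cannot be told apart.

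Claudin-7, claudin-3 and claudin-8 made up most of the claudin RNA in all 4 groups. Compared per kilobase of exon, so that levels of different genes can be set side by side, the order in untreated WT was Cldn7 at 739 ± 98.4 CPM per kb (SD, n = 3), Cldn3 at 448 ± 84.6 and Cldn8 at 227 ± 57.7. The values of these 3 genes did not overlap with each other or with those of lower genes in any group. Claudin-7, which is also found along the lateral membrane and binds EpCAM, held 39.2% to 44.6% of the summed level per kb of the 9 claudins across the 12 libraries. The middle of the order was closer. In untreated WT, Cldn15 was at 91.5 ± 15.6 and Cldn23 at 81.0 ± 2.45 CPM per kb, with overlapping values. Below them came Ocln (51.8 ± 3.60), Cldn2 (48.5 ± 18.3) and Cldn12 (32.4 ± 4.55), whose neighbours in the order also overlapped. Cldn4, which encodes a sealing claudin and a receptor of Clostridium perfringens enterotoxin, was lowest of the detected members in every group, at 7.30 ± 2.94 CPM per kb in untreated WT.

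**Figure D1:**
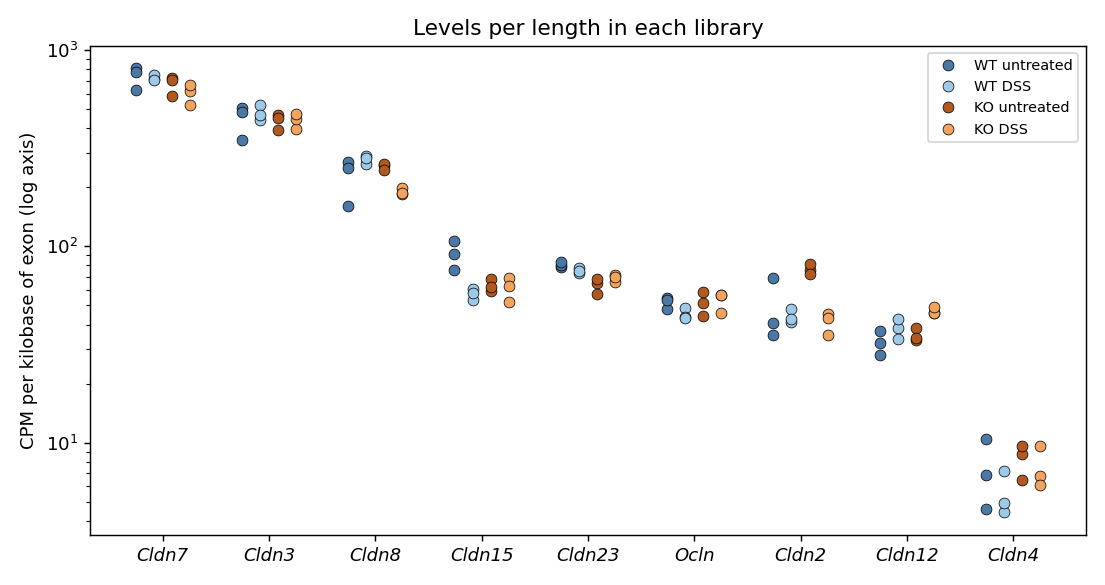
Level of each detected member in CPM per kilobase of exon (log axis), with 1 point per library and 1 colour per group. Cldn7, Cldn3 and Cldn8 lie above all other members in every group, and Cldn4 lies below them.

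The middle of the order differed between groups. In untreated KO, Cldn2 was the fourth member at 76.5 ± 4.60 CPM per kb (SD, n = 3), above Cldn23 (63.3 ± 5.62) and Cldn15 (63.3 ± 4.53), and its values did not overlap with those of Cldn23. In KO under DSS, Cldn2 was the eighth at 41.3 ± 5.24, below Cldn12 at 46.8 ± 1.80, with no overlap. In WT under DSS, Cldn23 (75.4 ± 1.83) lay above Cldn15 (57.3 ± 3.89) with no overlap. The summed level of the 9 claudins was 1403 to 1852 CPM per kb in WT without DSS and 1666 to 1756 with it, and 1499 to 1702 in KO without DSS and 1328 to 1554 with it. The sums of KO under DSS lay below those of WT under DSS, and the other comparisons overlapped.

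Cldn1 had 0 counts in all 12 libraries, out of 83424825 counts. With 3 counts as the limit that a count of 0 allows, its level was below 0.370 to 0.536 CPM depending on the library, for counting error only. Of 15 other claudins looked up, 14 had a row in the tables and 1, Cldn14, passed the filter on low counts. It was at 0.489 to 4.04 CPM across the libraries, from 3 to 34 counts. Cldn5, the claudin of endothelium, had 0 counts in 11 libraries and 3 counts in 1. The detected members had 54 to 143 counts per library for Cldn4, and at least 624 for each of the others, so Cldn4 was the least precise of them.

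Differences between groups were tested for all 12522 genes that passed the filter on low counts, with edgeR's quasi-likelihood test, and a gene was called when its adjusted p (Benjamini-Hochberg over all genes tested) was under 0.05. Fold changes are on the log2 scale with a standard error (SE). Under DSS in WT, 1 of the 9 tested members was called, Cldn15, against 6.30% of all genes. Under DSS in KO, 1 of 9 was called, Cldn2, against 3.92% of all genes. Between genotypes without DSS, 1 of 9 was called, Cldn15, against 3.48% of all genes. Between genotypes under DSS 0 of 9 were called, against 3.11% of all genes, and 3 had an unadjusted p under 0.05, against 14.6%. The median log2 fold change of the 9 members was -0.10 for DSS in WT, -0.043 for DSS in KO, -0.012 for genotype without DSS and -0.093 for genotype under DSS. Over all genes tested these medians were 0.0063, 0.015, -0.0015 and 0.0027. With 9 members tested, nothing further is read from 1 call. The highest group mean was 1.85 times the lowest for Cldn2, 1.45 to 1.60 times for Cldn12, Cldn8, Cldn4 and Cldn15, and 1.09 to 1.28 times for the other 4 members. The comparisons share groups, each of the 4 groups standing in 2 of the 4 comparisons, and are therefore not independent of each other.

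**Figure D2:**
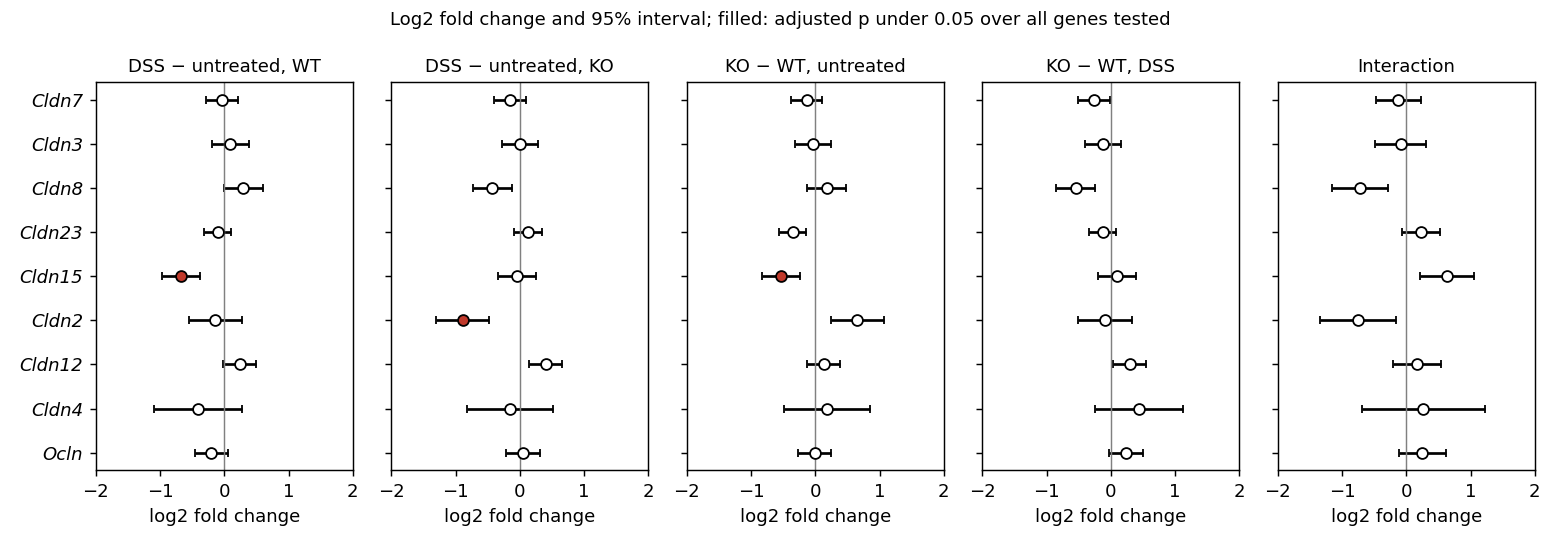
Log2 fold change of each detected member in the 4 comparisons of 2 groups and in the interaction, with its 95% interval. Filled points passed at an adjusted p under 0.05, which are Cldn15 in WT under DSS, Cldn2 in KO under DSS and Cldn15 between untreated genotypes.

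The promoters of the 2 members called, Cldn2 and Cldn15, are shown because these are the genes whose RNA changed. Each is the RefSeq window of 250 bases before to 50 after an annotated start in GRCm38.p6, 5′ to 3′ on the gene's plus strand. Capitals mark letters that match any of 4 motifs searched on both strands: an NF-kB pattern (GGG, any 5 bases, then CC), the CDX core (ATAAA), a CHR element of cell cycle promoters (TTTGAA) and an HNF1 element (GTTAAT).
Cldn2, chrX:139800558-139800857, plus strand: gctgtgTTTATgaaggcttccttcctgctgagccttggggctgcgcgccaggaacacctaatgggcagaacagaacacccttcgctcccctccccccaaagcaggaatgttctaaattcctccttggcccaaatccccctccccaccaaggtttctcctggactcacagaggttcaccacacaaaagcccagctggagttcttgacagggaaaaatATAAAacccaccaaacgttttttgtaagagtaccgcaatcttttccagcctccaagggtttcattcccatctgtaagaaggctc
Cldn15, chr5:136967619-136967918, plus strand: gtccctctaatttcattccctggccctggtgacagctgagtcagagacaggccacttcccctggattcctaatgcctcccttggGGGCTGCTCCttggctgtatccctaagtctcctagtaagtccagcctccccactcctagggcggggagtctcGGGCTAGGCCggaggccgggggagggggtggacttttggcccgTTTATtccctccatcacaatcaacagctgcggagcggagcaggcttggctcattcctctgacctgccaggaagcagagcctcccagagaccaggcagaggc
The Cldn2 window holds the CDX core 2 times, with first bases 244 and 34 bases before the start, and none of the other motifs. The Cldn15 window holds the NF-kB pattern 2 times, 166 and 94 bases before the start, and the CDX core 1 time, 51 bases before it. Of 32851 windows of this length, 50.8% hold the NF-kB pattern, 40.0% the CDX core, 17.9% the CHR element and 7.10% the HNF1 element, so these matches are common letters and describe the windows only. Of the other members, 6 have windows in the table. The NF-kB pattern is found in at least 1 window of Cldn7, Cldn12 and Ocln and in none of Cldn1, Cldn3 and Cldn4, and the HNF1 element is found in that of Cldn1.

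Cldn2, a cation and water channel of the crypt, fell under DSS in KO. It lies on chromosome X from 139800828 to 139811386 (GRCm38). In KO it was at 254, 270 and 239 CPM without DSS and at 117, 150.2 and 144 CPM with it, so that all treated values lay below all untreated ones. The log2 fold change was -0.89 (SE 0.19, edgeR adjusted p = 0.0186), 1.85-fold lower. In WT it was at 117, 136 and 231 CPM without DSS and at 159, 138 and 142 CPM with DSS, and the groups overlapped (-0.14, SE 0.19, edgeR adjusted p = 0.806). The untreated WT library with 231 CPM was replicate 3, whose value was near those of untreated KO. Without it, the WT change was 0.21 (edgeR adjusted p = 0.432).

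The call of Cldn2 in KO was close to the threshold. Leaving out any 1 of replicates 1 and 2 of untreated KO or any 1 of the 3 replicates of KO under DSS gave adjusted p values of 0.0503 to 0.0859, with log2 fold changes of -0.79 to -0.97, and leaving out replicate 3 of untreated KO gave 0.0496. Between untreated genotypes, Cldn2 was higher in all 3 KO libraries than in any WT library. The difference was 0.66 (SE 0.19, edgeR adjusted p = 0.0852) and did not pass. Without replicate 3 of untreated WT it was 1.01 (edgeR adjusted p = 0.000453), and by DESeq2 and limma-voom it passed with all libraries (adjusted p = 0.0325 and 0.0386), as it did by edgeR without a filter on low counts (0.000168). DESeq2 and the fit without a filter both called more of all genes than the main fit for DSS in KO and in the interaction. They also did so between genotypes, with and without DSS. Their passes in these comparisons are not read as added support for a member. Under DSS the genotypes overlapped, with a difference of -0.093 and a 95% interval of -0.51 to 0.32.

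The direct test of whether the DSS change of Cldn2 differed between genotypes, the interaction (change in KO minus change in WT), gave -0.75 (SE 0.27, 95% interval -1.34 to -0.16, edgeR adjusted p = 0.296). It did not pass, although it did in the fit without a filter on low counts (-0.76, edgeR adjusted p = 0.0103). Without replicate 3 of untreated WT it was -1.10 (edgeR adjusted p = 0.00244), and without any other 1 library it was -0.83 to -0.57 and did not pass.

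The genes with the pattern most like that of Cldn2 were Plk1, Bub1b and Cdca8. Likeness was measured as the root mean square difference of log2 CPM over the 12 libraries, each gene centred on its own mean, among 8857 genes whose mean log2 CPM reached 3. The difference from Cldn2 was 0.161 for Plk1, a kinase of mitosis, 0.161 for Bub1b, a kinase of the spindle checkpoint, and 0.195 for Cdca8, a subunit of the chromosomal passenger complex, against a root mean square deviation of Cldn2 itself of 0.422. Cdca8, for example, was at 40.2 ± 10.4 CPM (SD, n = 3) in WT without DSS and 37.2 ± 4.57 with it, and at 60.8 ± 1.64 in KO without DSS and 34.0 ± 3.25 with it.

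Most markers of crypt base and proliferating cells fell under DSS in KO, as Cldn2 did. In KO, 6 of 8 such markers fell (Lgr5, Ascl2, Top2a, Pcna, Mcm5 and Cdk1), and Mki67 and Axin2 had log2 fold changes of -0.33 and -1.40 and did not pass. In WT 1 of 8, Axin2, fell, all 8 had negative values (median -0.55), 5 had an unadjusted p under 0.05, and the summed levels with and without DSS did not overlap, while Cldn2 changed by -0.14, or 0.21 without replicate 3 of untreated WT. Between untreated genotypes 0 of 8 were called by edgeR, 2 had an unadjusted p under 0.05, and the median was 0.21. The summed level of the 8 markers was 586 to 643 CPM in KO without DSS and 342 to 360.1 CPM with it, and 372 to 403 CPM in DSS-treated WT. In untreated WT it was 466 and 445 CPM in replicates 1 and 2 and 654 CPM in replicate 3, the library with the high Cldn2 value. None of the 8 markers was at 0 in an untreated library, and at most 1 was in a library of DSS-treated mice. The part of crypt cell markers in the Cldn2 result was not tested.

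**Figure D3:**
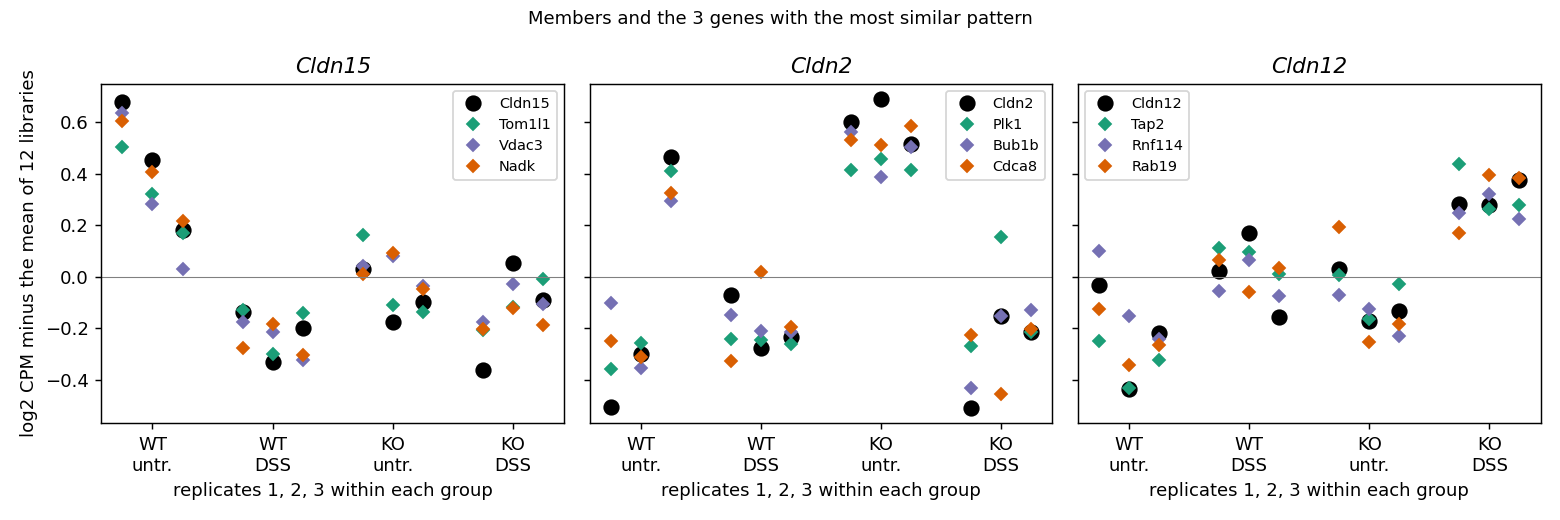
Log2 CPM minus the mean of the 12 libraries for Cldn15, Cldn2 and Cldn12 (large points) and the 3 genes nearest to each in pattern (small points), by group and replicate. For Cldn2 and its 3 nearest genes, each gene lies lower in every library of KO under DSS than in any of untreated KO.

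Cldn15, the other channel-forming member, was highest in untreated WT. It lies on chromosome 5 from 136966616 to 136975858 (GRCm38). Its level was 227, 194 and 161 CPM in WT without DSS and 129, 113 and 123 CPM with it, with no overlap. The change was -0.68 (SE 0.14, edgeR adjusted p = 0.00777), 1.60-fold lower, and it was called under all 13 alternatives tried, with adjusted p values of up to 0.0467. In KO the level was 145, 126 and 133 CPM without DSS and 110.3, 147 and 133 CPM with DSS, so the treated values spanned the untreated ones (-0.043, 95% interval -0.34 to 0.25).

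Between untreated genotypes Cldn15 was 1.45-fold lower in KO, with no overlap between the groups (-0.53, SE 0.14, edgeR adjusted p = 0.0491). That call ended when any 1 library of the 2 groups was left out other than replicate 3 of untreated WT, with adjusted p values of 0.0922 to 0.173. Without replicate 3 of untreated WT the difference was -0.65 (edgeR adjusted p = 0.0107). Both calls of Cldn15 rest on the same 3 untreated WT libraries. Under DSS the genotypes overlapped (0.10, 95% interval -0.20 to 0.40). The interaction was 0.63 (SE 0.20, edgeR adjusted p = 0.170) and passed without replicate 3 of untreated WT (0.75, edgeR adjusted p = 0.0398).

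Of 4 homeobox genes that mark distal colon, 1, Hoxb13, was called in both comparisons in which Cldn15 was. The summed level of Hoxb13, Hoxd11, Hoxd12 and Hoxd13 was 234 to 268 CPM in untreated WT and 353 to 418 CPM in the other 9 libraries, with no overlap. Most of that sum was Hoxb13, at 228 ± 21.9 CPM (SD, n = 3) in untreated WT, where the other 3 had means of 1.12 to 13.3 CPM. None of the 4 was at 0 in any library. Hoxb13 rose in WT under DSS (0.65, edgeR adjusted p = 0.000958) and was higher in untreated KO than in untreated WT (0.61, edgeR adjusted p = 0.00349). The other 3 did not pass, at 0.82 and 0.77 (Hoxd13), 0.87 and 0.85 (Hoxd12) and 1.865 and 2.03 (Hoxd11) in these 2 comparisons. All 4 were higher with an unadjusted p under 0.05 in both, against 2204 and 1930 of all 12522 genes in either direction. The interaction of Hoxb13 passed (-0.64, edgeR adjusted p = 0.0337). The part of position along the colon in the Cldn15 result was not tested. The genes nearest to Cldn15 in pattern were Tom1l1, an adaptor of endosomal sorting, Vdac3, a channel of the outer mitochondrial membrane, and Nadk, which makes NADP from NAD, at 0.107, 0.128 and 0.129 log2 units from it.

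Cldn8, a sealing claudin of the distal colon and distal nephron that limits leak of sodium between cells, was lowest in KO under DSS. It lies on chromosome 16 from 88560828 to 88563183 (GRCm38). Under DSS it was at 681, 621 and 662 CPM in WT and at 467, 437 and 439 CPM in KO, with no overlap. The difference was -0.55 (SE 0.14, edgeR adjusted p = 0.0552) and missed the threshold. It passed by DESeq2 (-0.55, adjusted p = 0.0129) and by limma-voom (adjusted p = 0.0496), and by edgeR without a filter (0.00019) and with only the 2 DSS groups fitted (0.00109). In untreated KO it was at 616, 618 and 576 CPM, above all 3 libraries of KO under DSS, a change of -0.43 (SE 0.14, edgeR adjusted p = 0.128) that passed when only the 2 KO groups were fitted (edgeR adjusted p = 0.00639) and without a filter on low counts (0.00518). In untreated WT it was at 631, 592 and 379 CPM, the low value again being replicate 3, and the change in WT was 0.29 (SE 0.14, edgeR adjusted p = 0.310), or 0.096 without that library.

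The interaction of Cldn8 was -0.72 (SE 0.20, 95% interval -1.16 to -0.29, edgeR adjusted p = 0.112). It passed without replicate 1 of untreated WT (-0.86, edgeR adjusted p = 0.0395), without replicate 3 of untreated WT (-0.53, edgeR adjusted p = 0.0134), by DESeq2 (-0.72, adjusted p = 0.0414) and without a filter on low counts (-0.74, edgeR adjusted p = 0.000709). With all libraries 0 of the 9 members were called in the interaction by edgeR, against 1.70% of all genes. At an unadjusted p under 0.05 there were 3 (Cldn2, Cldn8 and Cldn15), against 10.6% of all genes, and DESeq2 and limma-voom called 1 and 0. The median interaction of the 9 members was 0.16, and that of all genes -0.0066.

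**Figure D4:**
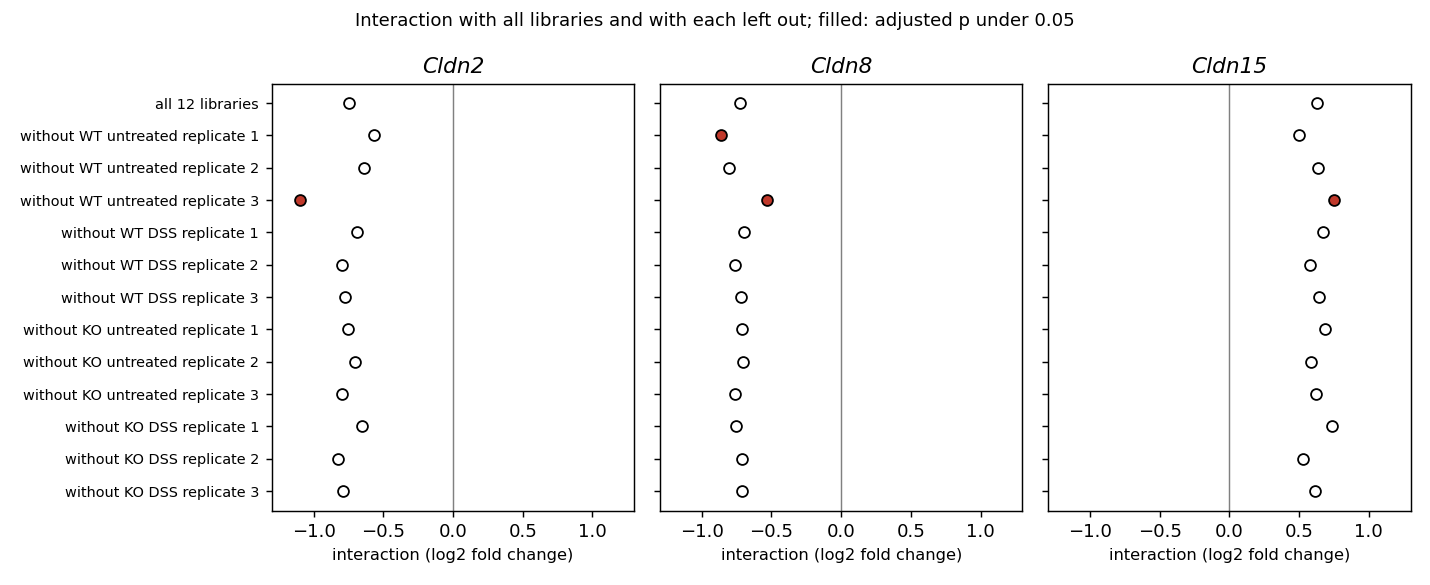
Interaction (DSS change in KO minus DSS change in WT, log2) of Cldn2, Cldn8 and Cldn15 with all 12 libraries and with each library left out, filled where the adjusted p was under 0.05. Without replicate 3 of untreated WT all 3 genes pass, at -1.10, -0.53 and 0.75, the change of Cldn8 being smaller than with all libraries (-0.72). That library is singled out by the values of these genes, so the passes are not separate support. Over all genes the leave-one-out fits called 152 to 350 in the interaction, against 213 with all libraries.

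Cldn12, a claudin linked to calcium permeability that lacks the C-terminal motif by which most claudins bind scaffold proteins, was highest in KO under DSS. It was at 156, 118 and 137 CPM in WT without DSS, 162, 179 and 143 CPM with it, and 163, 141 and 145 CPM in KO without DSS. In KO under DSS it was at 194, 193 and 207 CPM, above all other libraries. The change in KO was 0.40 (SE 0.12, edgeR adjusted p = 0.0897) and did not pass, although it did by DESeq2 (adjusted p = 0.0410) and when only the 2 KO groups were fitted (adjusted p = 0.0365). In the test of any difference among the 4 groups, Cldn12 passed (edgeR adjusted p = 0.0366), as did Cldn15 (0.0114) and Cldn2 (0.0159), against 12.1% of all genes. The nearest genes in pattern were Tap2, the peptide transporter of antigen presentation, Rnf114, a ubiquitin ligase, and Rab19, a small GTPase, at 0.110, 0.120 and 0.120 log2 units.

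Cldn23, a claudin of the luminal colonic epithelium, was slightly lower in untreated KO. It was at 145, 149 and 154 CPM in untreated WT and 120, 126 and 106 CPM in untreated KO, with no overlap. The difference was -0.35 (SE 0.099, edgeR adjusted p = 0.0674). It missed the threshold and passed by DESeq2 (adjusted p = 0.0129). Under DSS it was at 136 to 143 CPM in WT and 122 to 133 CPM in KO, also with no overlap, with a difference of -0.12 (edgeR adjusted p = 0.641). Its values within a group varied little, with a coefficient of variation of 2.43% to 8.88%.

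Cldn7, Cldn3, Cldn4 and Ocln were not called in any comparison. Cldn7 was at 1023 to 1289 CPM in KO under DSS and 1373 to 1454 CPM in WT under DSS, with no overlap, and the difference of -0.26 did not pass (95% interval -0.51 to -0.012, edgeR adjusted p = 0.313). In its other comparisons the groups overlapped. Cldn3 was at 441 to 664 CPM over the 12 libraries, its group means differed by at most 1.09 times, and its 95% intervals lay within -0.40 and 0.38 in the 4 comparisons of 2 groups. Ocln was at 182 to 246 CPM, its group means differed by at most 1.18 times, and its intervals lay within -0.46 and 0.50. These intervals allow changes of up to about that size. For Cldn4, at up to 18.9 CPM, the intervals were wide, -1.09 to 0.28 for DSS in WT and -0.24 to 1.13 for KO against WT under DSS, and its coefficient of variation within a group was 19.6% to 40.3%.

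Groups without overlap were counted apart from the tests, and with 9 members their number is read only beside the share of all genes. Under DSS in WT, 2 of the 9 detected members did not overlap between groups (Cldn15 and Cldn23), against 20.6% of all genes tested. Under DSS in KO there were 3 (Cldn2, Cldn8 and Cldn12), against 24.3%. Between untreated genotypes there were 3 (Cldn2, Cldn15 and Cldn23), against 19.3%, and under DSS 4 (Cldn7, Cldn8, Cldn12 and Cldn23), against 22.3%.

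**Figure D5:**
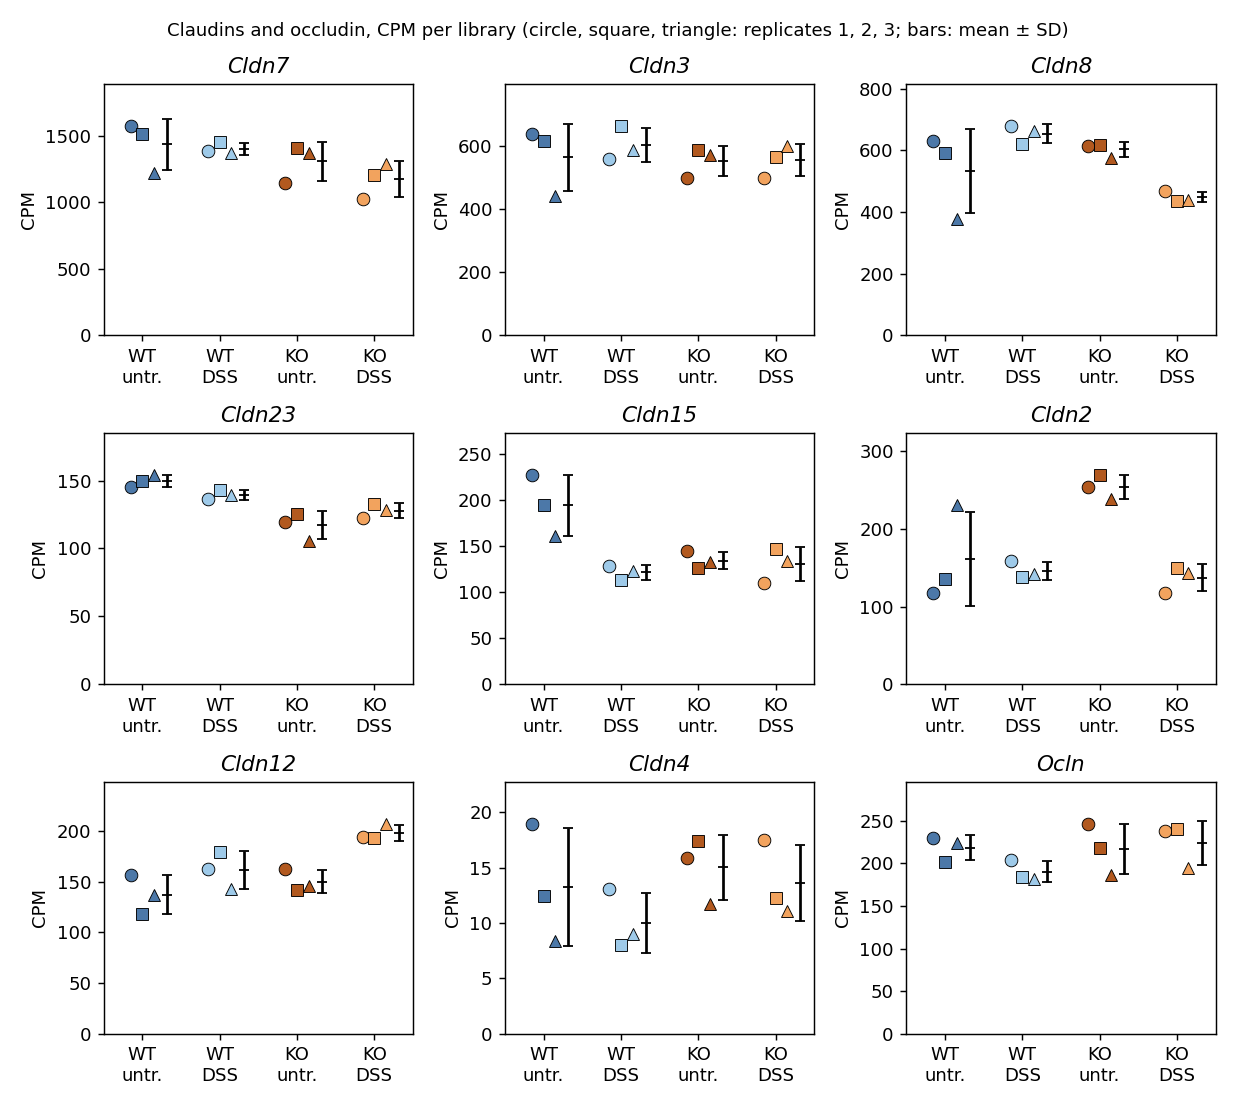
CPM of the 9 detected members in each library (circle, square and triangle for replicates 1, 2 and 3) with the mean and SD of each group beside the points, each panel starting at 0. Cldn2 is high in untreated KO and in 1 untreated WT library, Cldn15 is high in untreated WT, and Cldn8 is low in KO under DSS and in the same untreated WT library.

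Replicate 3 of untreated WT held the lowest value of its group for Cldn3, Cldn4, Cldn7, Cldn8 and Cldn15 and the highest for Cldn2 and Cldn23. Markers of surface colonocytes, the absorptive cells at the lumen, summed to 2026 CPM in it and to 3334 and 3096 CPM in replicates 1 and 2 of the group. In the other groups these 7 markers summed to 903 to 918 CPM in DSS-treated WT, and in KO to 3085 to 3206 CPM without DSS and 990 to 1159 CPM with it, with none at 0. Markers of goblet cells, the mucus-secreting cells, summed to 18728 to 29708 CPM in WT without DSS, lowest in replicate 3, and 14920 to 17313 CPM with it, and to 13415 to 14904 CPM in KO without DSS and 26423 to 30491 CPM with it, with none of the 6 at 0. Under DSS 6 of the 7 surface markers fell in WT and 5 in KO, while the abundant claudins Cldn7 and Cldn3 had log2 fold changes of -0.16 to 0.096. The part of surface and goblet cell markers in the claudin results was not tested.

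Other genes of the cell junction were mostly not called, as were most of all genes. Of 55 genes listed, 36 were tested. Under DSS in WT 3 of these were called, against 6.30% of all genes, and between untreated genotypes the same 3, against 3.48%. In the interaction 1 was called, against 1.70%. An unadjusted p under 0.05 was found for 11 under DSS in WT and 14 between untreated genotypes, against 2204 and 1930 of all 12522 genes. By edgeR 0 of 36 were called under DSS in KO, against 3.92% of all genes, and 2 had an unadjusted p under 0.05, against 1987 of all 12522 genes. Between genotypes under DSS the count called was also 0, against 3.11%, with 5 under 0.05 unadjusted, against 1829 of all genes. In these 2 comparisons DESeq2 called 0 and 2, and limma-voom 0 and 0. Under DSS in WT DESeq2 called 6 (Crb3, Ildr1, Lsr, Marveld3, Cgnl1 and Mpp5) and limma-voom 3, and between untreated genotypes each called 3. Their median log2 fold changes in the 4 comparisons were -0.0088, 0.058, -0.20 and -0.085.

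The 3 called genes are 2 angulins and a polarity protein. Lsr, an angulin that brings tricellulin to the corners where 3 cells meet, was in WT at 102 to 135 CPM without DSS and 178 to 195 CPM with it. Its change was 0.68 (SE 0.11, edgeR adjusted p = 0.00129). In untreated KO it was at 196 to 207 CPM, higher than in untreated WT by 0.79 (SE 0.11, edgeR adjusted p = 0.000891), and under DSS in KO at 179 to 193 CPM. Its interaction passed (-0.78, SE 0.16, edgeR adjusted p = 0.0147). Ildr1, another angulin, was at 500.5 to 556 CPM in untreated WT and 396 to 435 CPM in the other 9 libraries. It was lower under DSS in WT (-0.32, edgeR adjusted p = 0.0270) and in untreated KO (-0.36, edgeR adjusted p = 0.0231). Crb3, which helps set the apical side of the cell, was at 87.3 to 109 CPM in untreated WT and 60.4 to 75.6 CPM elsewhere, lower under DSS in WT (-0.47, edgeR adjusted p = 0.0449) and in untreated KO (-0.58, edgeR adjusted p = 0.0223). For these 3 genes, as for Cldn15, untreated WT was the group that lay apart from the others, and both calls share those libraries.

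Marveld3, a relative of tricellulin, was at 66.0 to 97.1 CPM in WT without DSS and 124 to 132 CPM with it (0.56, edgeR adjusted p = 0.0601), a change that DESeq2 called. Of the scaffold and polarity proteins, Magi1 and Tjp3 (ZO-3) had log2 fold changes under DSS of 0.61 and 0.23 in WT and 0.71 and 0.16 in KO. By edgeR 0 genes of the junctional adhesion molecule, adherens junction and desmosome lists were called in the 5 contrasts. Between untreated genotypes 2 of 3, 3 of 7 and 3 of 8 of them had an unadjusted p under 0.05, against 1930 of all 12522 genes, and DESeq2 and limma-voom called 0 there. Among junctional adhesion molecules, Igsf5 differed between the DSS-treated genotypes by -0.42 (KO minus WT, SE 0.12, edgeR adjusted p = 0.0752), a difference that DESeq2 called, and F11r and Cxadr differed by -0.033 and 0.26. In the adherens junction list 7 of 7 tested genes had a negative value in untreated KO against WT, among them Ctnnd1 (-0.44), Ctnna1 (-0.21) and Afdn (-0.41), and in the desmosome list 7 of 8 did, among them Dsc2 (-0.34), Dsg2 (-0.40) and Evpl (-0.32). None of these 15 genes passed, and over all genes the median was -0.0015.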

How the data were processed

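RNA of 12 samples, 3 per group by their titles, was made into libraries from 2 ng by SMART-seq2 and Nextera XT, per the labels' protocols, without strand or molecular identifiers. The authors deposited whole-number counts per gene, not normalized. STAR 2.5.2b and featureCounts 1.5.0, with GRCm38 and mm10, are named in the submitters' processing notes; the annotation is not given in the sources used here. Symbols, coordinates and exon lengths came from GENCODE M21 (GRCm38) by ID without version (46005 of 46517 matched). No 50-base word of a member's transcripts was found in another gene, and Cldn3 shares 40 exon bases with Wbscr25 on the other strand. Exons of Nfkb2 overlap those of AC114539.1 and Psd on the other strand, by 830 bases in sum. Promoter windows are RefSeq's (8 of 10 members).

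From the counts, edgeR 4.0.16 in R 4.3.3 (filterByExpr, 12522 genes holding 99.8% of counts; TMM; 1 coefficient per group over 12 samples; quasi-likelihood F test, two-sided, Benjamini-Hochberg) gave 5 contrasts. SE is the log2 fold change over the square root of F, and intervals are 95%. The test was checked on simulated data. Log2 CPM used a prior count of 2. Alternatives were RLE, DESeq2 1.42.0, limma-voom 3.58.1, other filters, fits of the 2 groups compared, a replicate block and leaving out each sample. The main fit used no pairs, and the replicate block was an alternative only. Between DSS and untreated, deviations of same-numbered samples from their group means were weakly correlated in KO (r = 0.204, 0.106 and 0.127). In WT r was 0.0138, 0.12 and 0.128. These values do not settle whether samples were paired. The block changed no member's call for DSS in KO. Replicate pairs differed beyond sampling noise (chi-square 5.13 to 20.1 per degree of freedom), and the intervals include that spread, whereas the floors cover counting error only.

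The members, lists, and the motifs, were chosen with earlier results of these data known. Named genes were all members, Nfkb2, up to 3 genes per junction list by the smallest p in the test of any group difference (mean log2 CPM of at least 1), and the 3 genes nearest in pattern to each of the 3 members with the smallest such p. Cldn5, Cldn14, Hoxb13 and single cell type markers were named after their values were seen.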

Additional observations from a re-analysis of the deposited data

How the results depend on the processing

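For DSS in WT, 1 member (Cldn15) was called under each of the 13 alternatives. Leaving out 1 library moved the number of members called to 0 to 1 for DSS in KO, 0 to 2 between untreated genotypes, 0 to 0 between genotypes under DSS and 0 to 3 in the interaction. For DSS in KO, DESeq2 and the fit without a filter called 2 members each, and the fit of the 2 groups 3. Between untreated genotypes DESeq2 called 3, limma-voom 2 and the fit without a filter 2, the fit of the 2 groups 0 and the replicate block 0 (Cldn15 at -0.53, edgeR adjusted p = 0.0840); the numbers there share only a label, since same-numbered samples did not deviate together (r = -0.173, -0.175 and -0.0535), and the block changed no other member's call. Under DSS, DESeq2, limma-voom, the fit without a filter and the fit of the 2 groups called 1 each (Cldn8), and in the interaction DESeq2 called 1 and the fit without a filter 2.

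Over all genes, calls for DSS in WT were 467 with the 2 groups alone and 483 to 958 with 1 library left out, against 789. For DSS in KO they were 800 by DESeq2, 776 unfiltered and 235 to 302 with 1 library left out, against 491. Between untreated genotypes they were 790, 703 and 212 to 725, and 195 with the 2 groups alone, against 436. Under DSS they were 662, 642 and 160 to 231, against 390, and in the interaction 368, 356 and 152 to 350, against 213. With the replicate block they were 695, 409, 345, 290 and 186.

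Of 630 alternative fold changes of members, 27 changed sign, each in a comparison where the main fit did not call that member. Leave-one-out ranges were, for DSS in WT, -0.33 to 0.21 (Cldn2), -0.054 to 0.19 (Cldn3) and -0.14 to 0.031 (Cldn7); for DSS in KO, -0.065 to 0.076 (Cldn3, and -0.0059 unfiltered), -0.15 to 0.060 (Cldn15) and -0.053 to 0.14 (Ocln); between untreated genotypes, -0.18 to 0.058 (Cldn3), -0.065 to 0.53 (Cldn4), -0.019 to 0.31 (Cldn8) and -0.11 to 0.088 (Ocln, and 0.0012 unfiltered and 0.0042 with the 2 groups alone); under DSS, -0.17 to 0.0076 (Cldn2) and -0.0051 to 0.21 (Cldn15); and in the interaction, -0.19 to 0.059 (Cldn3) and -0.090 to 0.51 (Cldn4). The cause of these shifts was not tested. Cldn1 was not detectable at this depth.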
